A study of Mus musculus with 15 samples.

Results

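The granzyme B cluster is a row of serine protease genes on mouse chromosome 14, and 6 of them, Gzmb, Gzmc, Gzmd, Gzme, Gzmf and Gzmg, are described here out of 21788 gene symbols listed in the series. Membership goes by gene name and position, and all 6 were listed in all 15 libraries. Killer T cells store granzymes in cytotoxic granules, release them toward a target cell through pores made by perforin, and cleave proteins inside the target. Granzyme B, which cuts after aspartate and sets off apoptosis, is the main granzyme of activated CD8+ T cells. Granzymes C to G are the neighbouring rodent genes, known in the mouse from strongly stimulated killer cells, and the substrates of most of them are poorly defined.

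The cells were CD8+ T cells sorted on day 21 from tumours of E.G7, an ovalbumin (OVA)-producing line derived from the EL4 lymphoma. Each mouse had been given the tumour cells under the skin on day 0. The mice were female C57BL/6, aged 6 to 8 weeks at injection and listed as 9 to 11 weeks old. The strain field counts upward from one sorted library to the next, as does the genotype field of 2 of the sorted libraries labelled KO. B7S1, the product of Vtcn1, dampens T cell responses, and B7S1R is the name the labels give to what binds it on T cells. TIM-3_SP cells were PD-1+Tim-3+B7S1R-, B7S1R_SP cells PD-1+Tim-3-B7S1R+ and DN cells PD-1+Tim-3-B7S1R-. Each of the 3 populations gave 1 library labelled B7S1 KO and 2 wild-type libraries, numbered 1 and 2. Bulk OVA-specific cells gave 1 library labelled KO and 1 wild-type library, with 6 mice per group. The last 4 libraries are titled anti_B7S1, anti_PD1, combo and Control, carry a wild-type label, and have no dose or schedule in the labels. Which population of CD8+ T cells was sorted for them is not in the labels either. Nothing states that the libraries of one population came from separate animals, so p-values measure only the spread between these libraries.

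Between 5752 and 10362 genes stood at 1 or more in each library. The T cell genes Cd3e and Cd8a were at 34.2 or more and 48.6 or more in every library, and none of 14 proteasome core genes was listed at 0 in any library. Vtcn1, the gene removed in the KO, stood at 9.46 RPKM in the bulk library labelled KO, against 0.0687 RPKM in the bulk wild-type library. Among the sorted libraries Vtcn1 stood at 0.16 to 2.5 FPKM in those labelled KO, against 0 in the wild-type libraries numbered 2. It was not listed in the other tables. The targeted transcript therefore goes against the labels or says nothing of them, and every genotype direction rests on the labels. Haemoglobin transcripts mark the wild-type libraries numbered 2, where Hba-a2 stood at 2318 to 19137 FPKM, against at most 29.0 FPKM in the other sorted libraries.

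The 6 genes lie within 144.6 kb, chr14:56117626-56262260 of GRCm38, all on the minus strand and each with 5 exons in GENCODE. In chromosome order they run Gzme (56117626 to 56120625), Gzmd (56129556 to 56132608), Gzmg (56156582 to 56159579), Gzmf (56205263 to 56211417), Gzmc (56231441 to 56234656) and Gzmb (56258838 to 56262260). Another granzyme gene, Gzmn, sits between Gzmg and Gzmf, and the mast cell protease Mcpt8 and cathepsin G (Ctsg) lie on the Gzme side. The coding sequences of Gzmd and Gzme were 93.3% identical, with a longest shared run of 96 bases. Gzmb was 66.4% to 75.9% identical to the other 5. A stretch of 90 coding bases, positions 30 to 119 counted from the A of the start codon, is shown for the 3 most abundant close relatives, with capitals at the 15 positions where they differ.
Gzmd: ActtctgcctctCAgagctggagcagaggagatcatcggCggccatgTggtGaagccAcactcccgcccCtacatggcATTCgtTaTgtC
Gzme: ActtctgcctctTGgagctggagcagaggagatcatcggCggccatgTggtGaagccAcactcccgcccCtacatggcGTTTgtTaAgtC
Gzmf: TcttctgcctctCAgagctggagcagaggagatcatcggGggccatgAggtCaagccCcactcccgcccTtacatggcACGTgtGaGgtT
Reads from such stretches can be hard to place. Of all 50-base windows of its transcript, the share found unchanged in another of the 6 transcripts was 21.5% for Gzmd, 19.1% for Gzme, 15.2% for Gzmg, 7.36% for Gzmf, 4.14% for Gzmc and 0% for Gzmb. At 100 bases, 2 windows of Gzmd and 2 of Gzmg were shared and no others. The submitters' notes name RSEM among the tools, but how the counting divided such reads is not given. By these windows, which leave out Gzmn, values of Gzmd, Gzme and Gzmg are the least certain of the 6, and Gzmb the most certain.

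The promoters also set Gzmb apart, but they place Gzmc with Gzmd to Gzmg. The promoter of Gzmc was 79.7% to 84.7% identical to those of Gzmd to Gzmg, and 50.7% to that of Gzmb. Its coding sequence was closest to that of Gzmb, at 75.9%, against 71.7% to 73.8% for Gzmd to Gzmg. In the RefSeq promoters (GRCm38.p6, 250 bases before and 50 after the start site), Gzmd and Gzme were 93.7% identical, and Gzmb was 48.3% to 50.7% identical to each of the others. A run of 36 bases just before the start site occurred in the promoters of Gzmd, Gzme, Gzmf and Gzmg and in no other of 32851 mouse promoters. Its first 20 bases were also in Gzmc. The 250 bases before the start site, minus strand, are shown for the gene with its own promoter and for the pair highest in TIM-3_SP after it among those with the run, which is in capitals.
Gzmb, chr14:56262335-56262584: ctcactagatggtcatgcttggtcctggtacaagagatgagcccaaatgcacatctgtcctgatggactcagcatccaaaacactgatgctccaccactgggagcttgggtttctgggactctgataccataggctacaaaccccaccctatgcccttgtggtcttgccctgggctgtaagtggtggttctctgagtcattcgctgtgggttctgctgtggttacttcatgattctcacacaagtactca
Gzme, chr14:56120626-56120875: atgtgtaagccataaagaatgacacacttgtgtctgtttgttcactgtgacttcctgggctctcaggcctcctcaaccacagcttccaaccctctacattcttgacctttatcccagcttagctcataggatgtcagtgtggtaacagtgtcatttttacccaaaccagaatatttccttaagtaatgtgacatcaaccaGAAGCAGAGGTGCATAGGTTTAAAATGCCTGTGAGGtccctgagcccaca
Gzmf, chr14:56211408-56211657: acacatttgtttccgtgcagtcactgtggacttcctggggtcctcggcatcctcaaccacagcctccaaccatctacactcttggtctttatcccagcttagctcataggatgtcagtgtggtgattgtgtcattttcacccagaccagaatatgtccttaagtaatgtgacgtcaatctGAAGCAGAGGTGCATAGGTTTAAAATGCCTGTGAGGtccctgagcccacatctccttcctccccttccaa
The letters of 5 motifs were searched on both strands of all 300 bases. TGTGGT, the core bound by RUNX factors, occurred at 2 places in each of the 6 promoters, and 16.8% of all promoters hold it. TGANTCA, the AP-1 motif, was found in Gzmb alone of the 6 (7.81% of all promoters), and TGACGTCA, the CRE, in Gzmc, Gzmf and Gzmg (1.79%). CAGGAA, an ETS core, was in all but Gzmb (30.6%), and AGGTGTGA, a T-box motif, in none of the 6 (1.28%). Overlap between these motifs was not removed, and a match describes letters, not binding.

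In the sorted cells all 6 genes were highest in TIM-3_SP. Gzmb stood at 1171, 616 and 397 FPKM in TIM-3_SP (wild type 1, wild type 2, labelled KO, the order used for all sorted values below), against 4.07, 0 and 0.42 FPKM in B7S1R_SP and 59.8, 28.3 and 8.67 FPKM in DN. The 3 populations did not overlap for Gzmb, and DN lay between the others. In TIM-3_SP_WT 1 Gzmb ranked 93rd of 15627 symbols.

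The 3 close relatives Gzmd, Gzme and Gzmf were abundant in the wild-type TIM-3_SP libraries and near the bottom of the scale elsewhere. Gzmf, the most abundant of them, stood at 1029, 386 and 62.0 FPKM in TIM-3_SP, against 2.65, 0.06 and 0 FPKM in B7S1R_SP and 4.58, 0 and 8.67 FPKM in DN. Gzmd stood at 625, 222 and 8.06 FPKM in TIM-3_SP, against 2.32, 0 and 0.06 FPKM in B7S1R_SP and 2.96, 0 and 0.75 FPKM in DN. Gzme stood at 667, 311.5 and 33.4 FPKM in TIM-3_SP, against 2.45, 3.69 and 0 FPKM in B7S1R_SP and 8.56, 4.85 and 2.3 FPKM in DN. For each of these genes every TIM-3_SP library was above every library of the other populations, and B7S1R_SP and DN overlapped. Within TIM-3_SP the library labelled KO was the lowest.

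Gzmc and Gzmg, the other members, were lower but had the same top population. Gzmc, whose purified product kills cells without caspases in mouse experiments, stood at 52.5, 219 and 35.9 FPKM in TIM-3_SP, against 10.1, 0 and 0 FPKM in B7S1R_SP and 1.23, 5.75 and 0.38 FPKM in DN. It was the only one of the 6 that was higher in the TIM-3_SP wild-type library numbered 2 than in number 1. Gzmg stood at 25.05, 7.33 and 0.13 FPKM in TIM-3_SP, and it was listed at 0 in all 6 B7S1R_SP and DN libraries, against which no fold is given.

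**Figure D1:**
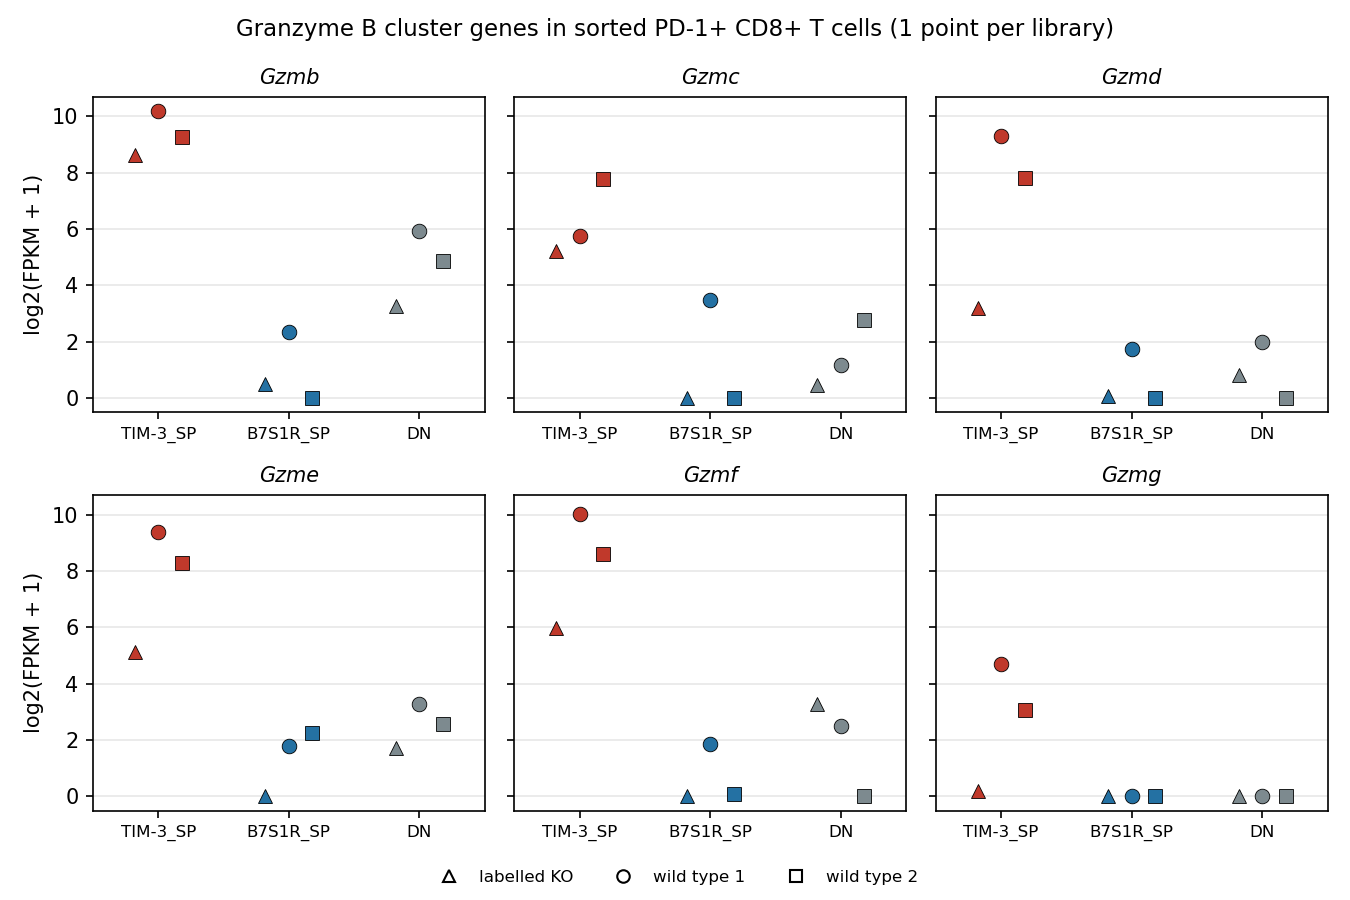
Level of each granzyme gene as log2(FPKM + 1), 1 point per library, in TIM-3_SP, B7S1R_SP and DN cells; triangles are libraries labelled KO, circles wild type 1 and squares wild type 2. Every TIM-3_SP point lies above all points of the other populations in all 6 panels, and Gzmb alone also separates DN from B7S1R_SP.

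The comparison of TIM-3_SP with DN asks how Tim-3-bearing PD-1+ cells differ from PD-1+ cells with neither marker. All 3 TIM-3_SP libraries were above all 3 DN libraries for 6 of 6 genes, against 2.25% of 10178 genes tested, and 7.97% were apart the other way. Within each of the 3 sets taken alone TIM-3_SP was also higher for 6 of 6, against 8.61% of genes, with 19.7% lower. All 6 passed the filter on low values, Gzmd and Gzmg only through TIM-3_SP. The direction of Gzmg was therefore fixed in advance, and the filter favoured that of Gzmd. In the wild-type libraries the log2 fold change on the FPKM + 1 scale was 8.06 ± 1.11 for Gzmf, 7.55 ± 1.05 for Gzmd, 5.93 ± 0.80 for Gzme, 4.81 ± 1.31 for Gzmc, 4.33 ± 1.00 for Gzmb and 3.88 ± 0.84 for Gzmg (SE, n = 2 each), while the median of all genes was -0.17. None passed limma's test: adjusted p was 0.326 for Gzmd, Gzme and Gzmf and 1 for the others, 0 of 10411 genes were called in either direction (0.0%), and 358 genes were under 0.05 before adjustment.

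Wild-type libraries 1 and 2 stand in tables that list different genes, and a fit blocked on the replicate number compares the populations within each table. There Gzmf (8.06 ± 0.76) and Gzmd (7.55 ± 0.75) were higher at a limma adjusted p of 0.00525 each, and they were the only genes called, 0.0192% of 10411. Of these, Gzmd had passed the filter on low values only through TIM-3_SP. Gzme just missed the threshold, at 0.0512. With the libraries labelled KO added and the set as a block, Gzmb (4.68 ± 0.50, limma adjusted p = 0.0375) and Gzme (5.08 ± 0.61, 0.0443) were called instead, among 6 genes or 0.059% of 10178, while Gzmf (0.105) and Gzmd (0.139) were not. Leaving out single libraries of this fit left 0 to 3 of the 6 called, and a pseudocount of 0.1 FPKM left 0 called with either block. Every member tested read higher in TIM-3_SP in these fits. Gzmg was not tested without TIM-3_SP_WT replicate 1, where it missed the filter on low values.

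Against B7S1R_SP, which carries the B7S1 receptor in place of Tim-3, TIM-3_SP was again the higher population. The log2 fold change of Gzmb was 8.56, against 4.33 in the comparison with DN, and that of Gzmg was the same in both. The comparisons share the TIM-3_SP libraries, and their difference is the B7S1R_SP and DN comparison given further on. All 3 TIM-3_SP libraries were above all 3 B7S1R_SP libraries for 6 of 6 genes, against 4.44% of 10178 genes tested, and 9.02% were apart the other way. Within each set TIM-3_SP was higher for 6 of 6, against 13.9% of genes, with 24.7% lower. Here too Gzmd and Gzmg passed the filter on low values only through TIM-3_SP. The direction of Gzmg was therefore fixed in advance, and the filter favoured that of Gzmd. The wild-type log2 fold change was 8.56 ± 1.00 for Gzmb, 8.33 ± 1.11 for Gzmf, 7.68 ± 1.05 for Gzmd, 6.83 ± 0.80 for Gzme, 5.03 ± 1.31 for Gzmc and 3.88 ± 0.84 for Gzmg (SE, n = 2 each), with a median of all genes of -0.16. Limma's adjusted p was 0.150 for Gzmb and Gzme, 0.174 for Gzmd and Gzmf, 0.762 for Gzmc and 0.721 for Gzmg, with 0 of 10411 genes called (0.0%) and 493 under 0.05 before adjustment.

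Blocking on the replicate number, 4 of the 6 were higher: Gzmb and Gzmf at a limma adjusted p of 0.00247, Gzmd at 0.00298 and Gzme at 0.0106. They were 4 of the 6 genes called higher (0.0576% of 10411), and 1 gene, no member, was called lower (0.00961%). Gzmd among the 4 had passed the filter on low values only through TIM-3_SP. The same 4 were called over 9 libraries with the set as a block, Gzmb by 8.42 ± 0.50 at a limma adjusted p of 0.00054, where 0.167% of 10178 genes were called higher. Gzmb was called in all 9 fits that left out 1 library from that one and Gzme in 8, but Gzmf in 3 and Gzmd in 2, and 1 member was left without TIM-3_SP_WT replicate 2. With a pseudocount of 0.1 FPKM 0 of the 6 were called with either block.

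The B7S1R_SP libraries held more transcripts of macrophages and dendritic cells. The summed FPKM of the listed markers of these cells was 148, 102 and 115 in TIM-3_SP, against 1946, 459 and 6224 in B7S1R_SP and 533, 271 and 88.3 in DN, with Lyz2, a macrophage lysozyme, at 97.7 to 2440 FPKM in B7S1R_SP. In B7S1R_SP 0 or 1 of the 12 to 15 listed markers were at 0 in each library, against 2 of 12, 4 of 15 and 7 of 15 in TIM-3_SP. The 9 listed T cell identity genes summed to 6927, 8797 and 6515 FPKM in TIM-3_SP, against 4694, 2301 and 2040 FPKM in B7S1R_SP and 7712, 6126 and 3350 FPKM in DN. In bulk RNA fewer T cells and less RNA per cell cannot be told apart, and the part of these differences in the granzyme results was not tested.

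B7S1R_SP and DN were alike in lacking high levels of Gzmc to Gzmg and differed in Gzmb. Gzmb was lower in all 3 B7S1R_SP libraries than in all 3 DN libraries, as were 3.16% of 10178 genes, and none of the 6 was apart the other way (3.75%). Its wild-type log2 fold change was -4.23 ± 1.00 (SE, n = 2 each), with a limma adjusted p of 1, and -3.74 ± 0.50 with an adjusted p of 0.212 over 9 libraries with the set as a block. No gene of 10411 was called by limma (0.0%), none of the 6 was called in any alternative fit, and 2 of the 6, Gzmb and Gzme, were lower within each of the 3 sets, against 14.0% of genes, and none higher (15.8%). For Gzmc, Gzmd and Gzmf the values were -0.22 ± 1.31, -0.13 ± 1.05 and -0.26 ± 1.11, and their sign turned when single libraries were left out, to 1.52 for Gzmc without B7S1R_SP_WT replicate 2 and to 0.98 for Gzmf without DN_WT replicate 1.

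The libraries labelled KO ask what loss of B7S1 did to the cluster. In TIM-3_SP the library labelled KO was below both wild-type libraries for 6 of 6 genes, a position held by 37.3% of 10178 genes there. The gap was uneven. Gzmb stood at 397 FPKM in the library labelled KO, with wild type 1 at 2.95 times and wild type 2 at 1.55 times that level. Gzmd stood at 8.06 FPKM, with the wild-type libraries at 77.6 and 27.6 times that level, and Gzme, Gzmf and Gzmg also lay further apart than Gzmb. In DN 3 of the 6 (Gzmb, Gzmc and Gzme) were below both wild-type libraries, against 53.4% of genes, and Gzmf alone was above both, against 21.8%. In B7S1R_SP 2 of the 6, Gzme and Gzmf, were below both, against 35.9%.

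Over all 9 sorted libraries, with the population as a covariate, the KO over wild-type log2 fold change was -2.31 ± 0.55 for Gzme, -2.11 ± 0.97 for Gzmd, -1.60 ± 0.80 for Gzmc, -1.29 ± 0.61 for Gzmb, -1.23 ± 0.73 for Gzmg and -0.76 ± 0.97 for Gzmf (SE, n = 3 and 6). The libraries labelled KO form a single set, so genotype and set cannot be told apart. The SE takes libraries of that set as separate replicates and may be too small. The median of all genes was -0.41 in this comparison and 0.0006 after quantile normalization, and relative to that median Gzme lay at -1.89, Gzmb at -0.88 and Gzmf at -0.34. No gene passed limma's test (0 of 10178, 0.0%), with 1377 at an unadjusted p under 0.05, and the smallest adjusted p among the 6 was 0.339, for Gzme. Only the wild-type libraries numbered 2 share a table with those labelled KO, and within that table Gzmf was at 0.19 ± 1.01 and Gzme at -2.08 ± 0.52, with limma adjusted p-values of 0.944 and 0.367. There 4 genes were called lower, 0.0396% of 10097, and none of them was a member. The libraries labelled KO had 9 of 9 T cell identity genes lower (median -1.29), 12 of 12 regulators lower (median -1.34), 6 of 6 granzyme inhibitors lower (median -2.42), 9 of 10 proliferation genes higher (median 1.03) and 7 of 10 macrophage and dendritic cell markers higher (median 0.83), none of them called. The cluster itself had 6 of 6 lower (median -1.45), and 31.8% of all genes were higher. What part these had in the granzyme values was not tested.

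The bulk OVA-specific cells gave the same 6 genes a second reading of the KO label, with 1 library each and so no replicate check. Gzmb stood at 784 RPKM in the library labelled KO, against 945 RPKM in wild type, and Gzmc at 69.8 against 83.4 RPKM. Gzmf stood at 194 RPKM in the library labelled KO, against 374 RPKM in wild type, a ratio of 0.519. Gzme stood at 82.8 against 239 RPKM, a ratio of 0.346. Gzmd stood at 34.8 against 265 RPKM, a ratio of 0.131, and Gzmg at 0.265 against 8.62 RPKM, a ratio of 0.0307. Gzmb and Gzmc were lower in the library labelled KO by little, at ratios of 0.830 and 0.838. Gzmd, Gzme and Gzmg were past the fold, at least 5 RPKM in one library and a 2-fold ratio, and 14.1% of 6075 genes were past it in that direction. At a 4-fold ratio 2 of them, Gzmd and Gzmg, were left. Gzmg reached 5 RPKM only in the wild-type library, so its direction was fixed in advance.

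Steps between low values put the bulk libraries at an estimated 12018000 reads (labelled KO) and 11082000 reads (wild type). The RPKM of Gzmg then stood for about 3 reads in the library labelled KO, against 87 in wild type, and the 95% counting interval of its ratio was 0.00643 to 0.0960. For Gzmd the estimates were 403 reads, against 2831 in wild type, with an interval of 0.118 to 0.146, and for Gzmb 13535 reads, against 15037, with 0.811 to 0.850. These intervals cover counting error only.

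**Figure D2:**
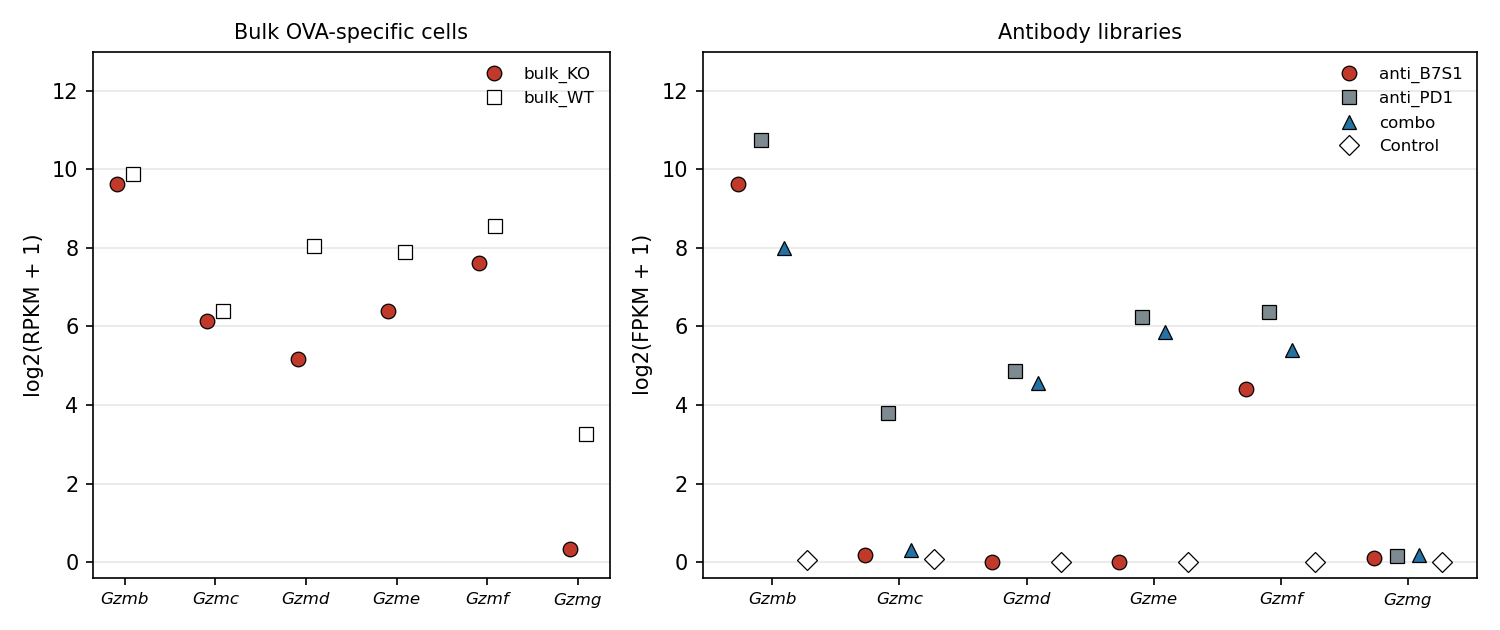
Levels of the 6 genes as log2(RPKM + 1) in the bulk libraries labelled KO and wild type (left) and as log2(FPKM + 1) in the anti_B7S1, anti_PD1, combo and Control libraries (right), 1 point per library with no replicates. In bulk cells Gzmd, Gzme and Gzmg lie furthest below wild type, and in the antibody libraries Gzmb is high in all 3 while Control lies at or near 0 for every gene.

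The libraries titled with antibodies ask what blocking B7S1, PD-1 or both did. Gzmb stood at 788 FPKM in anti_B7S1, 1716 FPKM in anti_PD1 and 257 FPKM in combo, against 0.04 FPKM in Control. Gzmf followed at 20.4, 81.7 and 41.0 FPKM, against 0 in Control. Gzmd stood at 28.4 FPKM in anti_PD1 and 22.7 FPKM in combo, and was listed at 0 in anti_B7S1 and in Control. Gzme had the same pattern, at 74.3 FPKM in anti_PD1 and 57.0 FPKM in combo, against 0 in anti_B7S1 and Control. Gzmc reached 12.8 FPKM in anti_PD1, and stood at 0.13 FPKM in anti_B7S1, 0.25 FPKM in combo and 0.06 FPKM in Control. Gzmg did not exceed 0.14 FPKM in any of the 4.

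Against Control, 2 of the 6 in anti_B7S1, 5 in anti_PD1 and 4 in combo held at least 5 FPKM in the higher library. All of these were past the fold upward, beside 38.3%, 44.2% and 40.5% of all genes at 5 FPKM or more. None was past the fold downward, beside 29.5%, 24.4% and 28.3%. These members reached 5 FPKM only in the antibody library, so their direction was fixed in advance. These comparisons share the Control library, in which 6242 of 14710 symbols were listed at 0. Control held T cell transcripts, with Cd8a at 355 FPKM, but Prf1 (perforin) at 0.11 FPKM, against 295 in anti_B7S1, 793 in anti_PD1 and 625 in combo, and 0 for Tbx21 (T-bet), a factor of effector T cells. Of the other granzymes and perforin, 2 were past the fold upward and 1 downward in each comparison. The latter was Gzmm, at 34.4 FPKM in Control, against at most 0.32 FPKM in the antibody libraries. Of 12 listed regulators of granzyme genes, 6, 7 and 4 were past it upward and 1 downward in each. The Tim-3 gene Havcr2 was at 0.19 FPKM in Control, against 174 to 213 FPKM in the antibody libraries. With 1 library each, treatment, library and the unstated sorted population cannot be told apart.

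Between the antibody libraries Gzmb was lower in combo than in either single-agent library, at 0.150 times the anti_PD1 level and 0.326 times the anti_B7S1 level. In combo against anti_PD1, Gzmb and Gzmc were past the fold downward (33.6% of 8000 genes) and none upward (24.6%), while Gzmd (ratio 0.802), Gzme (0.767) and Gzmf (0.502) stayed within it. Gzmc reached 5 FPKM only in anti_PD1, so its direction was fixed in advance. In combo against anti_B7S1, Gzmd, Gzme and Gzmf were past the fold upward (33.8% of 7546 genes) and Gzmb downward (31.4%). Gzmd and Gzme reached 5 FPKM only in combo, so their direction was fixed in advance. Gzmf stood just over the limit, at a ratio of 2.01. Proliferation genes separated these libraries as Gzmd and Gzme did: the 10 listed summed to 951 FPKM in anti_PD1 and 855 FPKM in combo, against 2.72 FPKM in anti_B7S1 and 13.3 FPKM in Control. What part that had in the granzyme values was not tested.

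The make-up of the cluster signal differed between libraries. FPKM and RPKM are per length, so the 6 values of a library can be summed. Gzmb was the highest of the 6 in every library but B7S1R_SP_WT 1, B7S1R_SP_WT 2 and Control, where the sums were low, at 0.1 to 21.6 FPKM, and it tied with Gzmf in DN_KO. In TIM-3_SP Gzmb made up 74.0% of the sum in the library labelled KO, against 32.8% and 35.0% in wild type, and in bulk cells 67.2% in the library labelled KO, against 49.3% in wild type. Gzmd made up 1.50% in TIM-3_SP labelled KO, against 17.5% and 12.6% in wild type, and 2.98% in bulk labelled KO, against 13.8% in wild type. Gzmb took 97.5% of the sum in anti_B7S1, 89.7% in anti_PD1 and 67.9% in combo. In both TIM-3_SP and bulk cells the share of Gzmd was smaller in the library labelled KO, a description with no test. In DN, where the sums were 20.8 to 77.1 FPKM, Gzmb went the other way. It made up 41.7% in DN labelled KO, against 77.5% and 72.7% in wild type. Gzmd made up 3.61% there, against 3.84% and 0% in wild type.

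**Figure D3:**
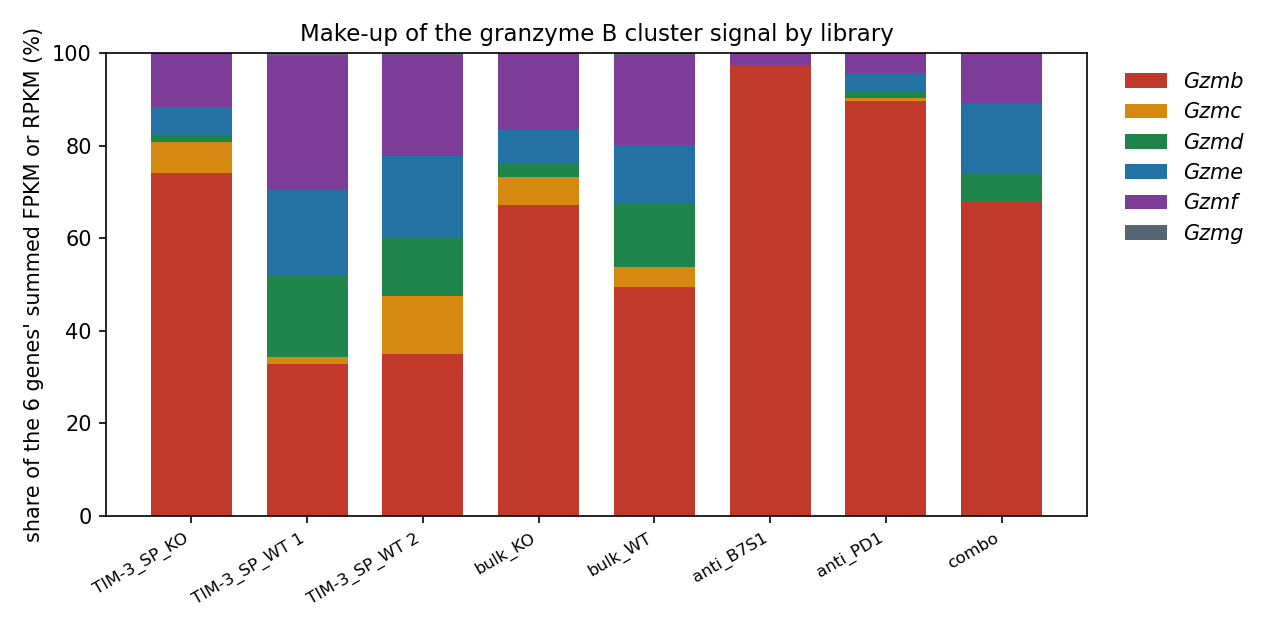
Share of each gene in the summed RPKM (bulk) or FPKM (others) of the 6 granzymes, in percent, in the 8 libraries where the sum was above 100. Gzmb fills 74.0% of TIM-3_SP labelled KO, against 32.8% and 35.0% in the wild-type TIM-3_SP libraries, and 97.5% of anti_B7S1.

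Of the neighbouring protease genes listed in the sorted libraries, Mcpt8 reached the highest level. Mcpt8, a protease gene known from basophils on the Gzme side of the cluster, stood at 17.5, 10.2 and 1.26 FPKM in TIM-3_SP, against 0.19, 0 and 0 FPKM in B7S1R_SP and 0 in all DN libraries. Every TIM-3_SP library was above every B7S1R_SP and DN library, but Mcpt8 passed the filter on low values only through TIM-3_SP, so its levels are given without a test. In bulk cells Mcpt8 stood at 6.29 RPKM in the library labelled KO, against 11.6 RPKM in wild type. Gzmn, between Gzmg and Gzmf, reached 2.77 FPKM in TIM-3_SP_WT 1 and 0.28 FPKM in TIM-3_SP_WT 2, and was listed at 0 in the other sorted libraries. Ctsg, between Mcpt8 and Gzme, did not exceed 0.7 FPKM where listed. The 5 or 6 mast cell markers listed of 9 summed to 6.51, 13.2 and 0.86 FPKM in TIM-3_SP, against 13.4, 6.59 and 17.8 FPKM in B7S1R_SP and 7.17, 4.17 and 54.5 FPKM in DN. At 0 were 1, 1 and 2 of them in TIM-3_SP, against 3, 2 and 0 in B7S1R_SP and 3, 2 and 0 in DN. The markers differed among themselves: Kit was at most 2.66 FPKM in TIM-3_SP, against up to 10.5 in B7S1R_SP and 6.98 in DN, and Cpa3 at most 7.86 FPKM, against up to 15.7 in B7S1R_SP and 53.0 in DN. Within the wild-type libraries numbered 2, however, Cpa3 (7.86 FPKM, against 1.94 in B7S1R_SP and 0.23 in DN) and Hdc (2.58 FPKM, against 0 and 0) were highest in TIM-3_SP. So were Ms4a2 (3.0 FPKM, against 0 in B7S1R_SP and 0.14 in DN) and Tpsb2 (0.92 FPKM, against 0 and 0) within those numbered 1. The part of such cells in the protease values was not tested.

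**Figure D4:**
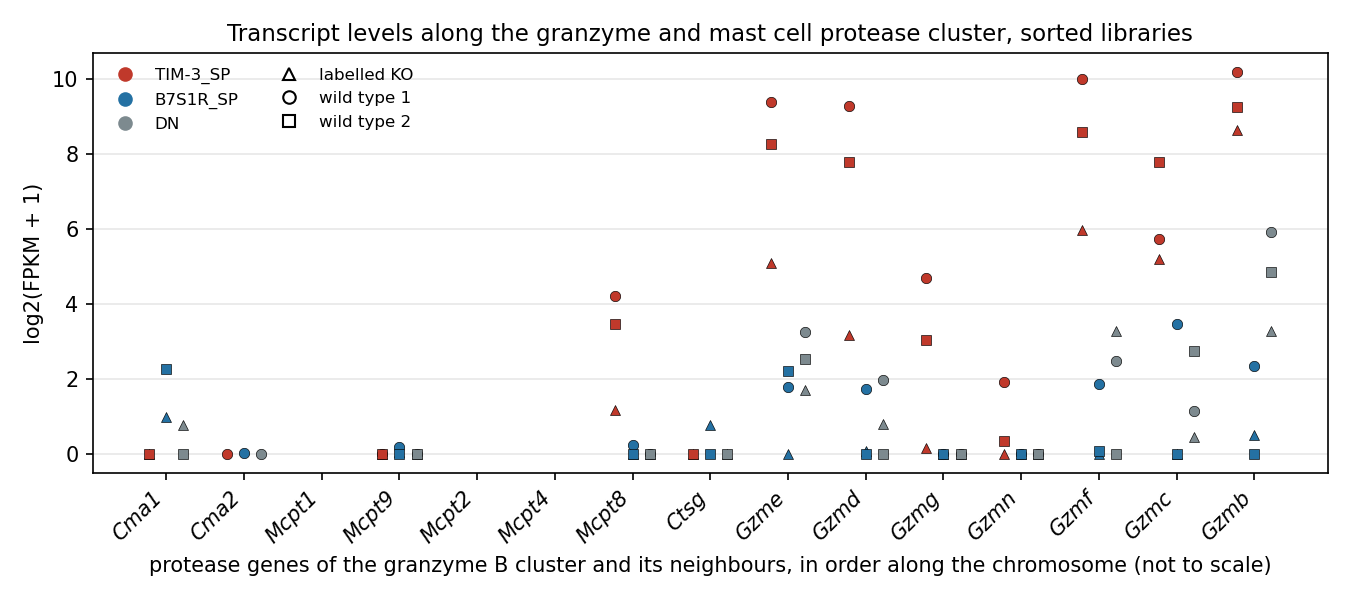
log2(FPKM + 1) of the protease genes of the cluster in chromosome order (not to scale) in the 9 sorted libraries; colours mark the populations and symbols the sets, and a gene without points is not listed in those tables. All TIM-3_SP points stand above the others for the 6 described genes and at Mcpt8, but not at Gzmn, while Ctsg and the other mast cell protease genes stay near 0 except Cma1 in B7S1R_SP.

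Other parts of the killing machinery were set beside the cluster. No gene of these lists was called by limma in the unblocked population comparisons. Of the other granzymes and perforin, 3 of the 4 tested were higher in TIM-3_SP than in DN, with a median of 0.93, against 5.37 for the cluster and -0.17 for all genes. Prf1 read 3.57 ± 1.77 and Gzma, a tryptase that acts without caspases, 1.57 ± 2.23, while Gzmk, a granzyme of memory-like and tumour T cells, read 0.29 ± 1.16 and Gzmm -0.72 ± 1.13. Prf1 stood at 1036, 128 and 24.0 FPKM in TIM-3_SP, against 51.9, 0 and 0.55 FPKM in B7S1R_SP and 29.2, 30.4 and 1.54 FPKM in DN. Within each of the 3 sets Prf1 was highest in TIM-3_SP, as the 6 cluster genes were. Across sets the populations overlapped, since TIM-3_SP labelled KO lay below B7S1R_SP_WT 1 and both wild-type DN libraries.

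All 6 granzyme inhibitors, serpins that protect the killer cell from its own granzymes or are related to those that do, read higher in TIM-3_SP in both comparisons, with a median of 0.90 against DN and 2.74 against B7S1R_SP. Serpina3f stood at 166, 82.7 and 22.4 FPKM in TIM-3_SP, against 4.61, 0.45 and 0.12 FPKM in B7S1R_SP and 18.6, 11.9 and 0.35 FPKM in DN, and was called against B7S1R_SP with the replicate block (5.38 ± 0.77, limma adjusted p = 0.0471). Serpinb9, the inhibitor of granzyme B, read 0.60 ± 1.21 against DN and 3.08 ± 1.21 against B7S1R_SP, and Serpinb6b 0.48 ± 0.96 and 1.24 ± 0.96 in these comparisons. Serpinb9b read 1.36 ± 1.00 against DN.

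Of the 8 genes of granzyme maturation and storage, 5 were higher and 3 lower against DN (median 0.21), and 4 and 4 against B7S1R_SP (0.48). Ctsc, which activates pro-granzymes, read 0.65 ± 1.10 against DN, Srgn, the granule proteoglycan, 0.15 ± 0.80, Nkg7, a granule membrane protein, 1.06 ± 0.85, and Lamp1 -2.17 ± 0.78. Ctsh read -3.19 ± 0.91 against B7S1R_SP and was called lower over 9 libraries with the set as a block (-3.71 ± 0.60, limma adjusted p = 0.0473). In that fit 0.246% of 10178 genes were called lower. The B7S1R_SP libraries also held more macrophage and dendritic cell transcripts, whose part in the Ctsh values was not tested. Of 12 genes of granule exocytosis 8 were higher against DN (median 0.17) and 9 against B7S1R_SP (0.45), with Lyst at 2.09 ± 0.98 and Stx7 at -1.69 ± 1.18 against DN and Snap23 at 2.39 ± 0.77 against B7S1R_SP.

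Of 12 regulators of granzyme genes, 6 were higher and 6 lower against DN (median 0.14), and 9 and 3 against B7S1R_SP (0.93). Tbx21 read 0.72 ± 1.72, Eomes -0.08 ± 0.92, Prdm1 (Blimp-1) -0.04 ± 0.86, Il2ra, the high-affinity IL-2 receptor chain, 1.45 ± 1.15 and Stat5a -1.60 ± 1.13 against DN. Id2, a factor of effector T cells, read 1.59 ± 0.75 against DN and 2.78 ± 0.75 against B7S1R_SP, and was called against B7S1R_SP over 9 libraries with the set as a block (3.14 ± 0.45, limma adjusted p = 0.0373). Il2rb read 2.98 ± 1.84 against B7S1R_SP. Against DN the T cell identity genes had a median of 0.06, with 5 of 9 higher, macrophage and dendritic cell markers -0.10 (4 of 9), NK cell markers -0.08 (0 of 5 higher, Eomes among them), proliferation genes 1.06 (9 of 10) and CD4 T cell markers -1.58 (0 of 2). In the same comparison erythroid markers had a median of -0.45 (0 of 2), mast cell markers -0.09 (1 of 2), and the 1 B cell marker tested, Cd79b, read -3.14 ± 1.34.

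**Figure D5:**
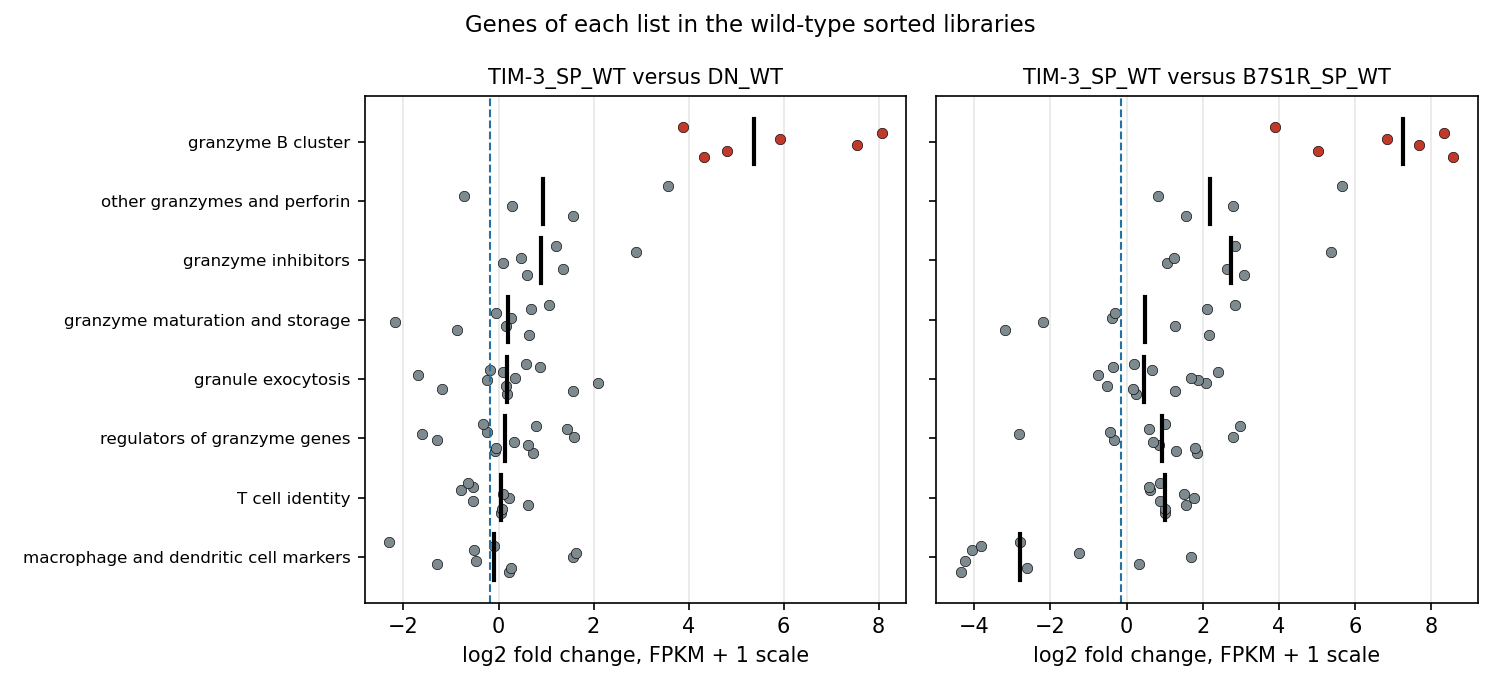
log2 fold change (FPKM + 1 scale) of each gene of 8 lists in TIM-3_SP over DN (left) and TIM-3_SP over B7S1R_SP (right), wild-type libraries; points are genes, black bars list medians and the dashed line the median of all genes. The cluster lies between 3.88 and 8.56, above the median of every other list drawn.

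Across the 9 sorted libraries Gzmd and Gzmf had the highest likeness within the cluster, at a Pearson correlation of 0.960 of log2(FPKM + 1), with Gzmd and Gzme at 0.959. These libraries share their populations and sets, and the close paralogs may share reads. Among 6412 genes averaging 5 FPKM or more, the gene most like Gzmb was Ifng, the gene of interferon gamma (0.961), followed by Tmsb15l, Zfp560, Dnajc9 and Id2. Ifng stood at 912, 1692 and 1077 FPKM in TIM-3_SP, against 67.6, 40.0 and 17.1 FPKM in B7S1R_SP and 265, 373 and 99.99 FPKM in DN, the same order of populations as Gzmb and without overlap. Gzmc was most like Wdr95 (0.968), Chn2, Havcr2, D16Ertd472e and Fcrl6. Havcr2, the Tim-3 gene on which the cells were sorted, was also among the 5 most like Gzmd, behind Gzmf, Gzme and Dhrs7. Gzme was most like Dhrs7 (0.974), Gzmd, Gzmf, Chsy1 and Wdr95, and Gzmf like Gzmd, Gzme, Fcrl6 and Nipsnap3b. One further gene near Gzmd and Gzmf had a symbol turned into a date in the tables, and Gzmg was too low to be ranked.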

How the data were processed

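RNA of tumour-infiltrating CD8+ T cells was measured in 15 libraries, made with an ultra low input SMARTer kit and read by RNA-seq, per the labels' protocols. In the deposited files the bulk values are the authors' RPKM and the other 13 libraries their FPKM, per the file headers: reads or fragments per kilobase of transcript scaled to the library's mapped total. HISAT2, Bowtie2 and RSEM and the build mm10 are named without versions in the submitters' processing notes, and the annotation is not given in the sources used here. No counts were used. Groups were taken from the titles. The members and gene lists were chosen with earlier results of these data known.

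The files form 4 tables listing 17205, 15627, 17605 and 14710 symbols once each, and all 6 granzymes are in each. For the sorted libraries limma 3.58.1 (R 4.3.3) was fitted to log2(FPKM + 1) of all genes averaging 1 FPKM or more, two-sided, with Benjamini-Hochberg adjustment over all genes tested and a threshold of 0.05. The population comparisons used 6 wild-type libraries, and the genotype comparisons all 9 with the population as a covariate. Replicate numbers come from the titles. Across 10411 genes the deviations of same-numbered libraries from their group means had correlations of 0.193, 0.269 and 0.401 for the 3 pairs of populations, each above 0.1, and the wild-type libraries were taken as paired by number. A fit blocked on the number, and one over 9 libraries with the set (wild type 1, wild type 2, labelled KO) as a block, are given where they change a call. Alternatives were a pseudocount of 0.1 FPKM, no filter, absent genes as 0, quantile normalization and leaving out each library. The fits were tested on simulated data.

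Bulk and antibody groups hold a single library each, so they have no test. There a gene was counted when the higher library held at least 5 RPKM or FPKM and at least 2 times the lower, with a 4-fold ratio, a minimum of 1 and upper-quartile scaling as alternatives. Bulk totals were worked out from the spacing of the lowest RPKM values. Of 4661 ratios between the libraries, 60.1% were a fraction of whole numbers up to 8 times one factor, within 0.005%, against 0.215% after a shift. That check bears on the ratio of the totals, 1.09 (labelled KO over wild type), and not on each total. At the totals used, 63.1% (labelled KO) and 64.6% (wild type) of the low values fell near a whole number of reads. The read estimates also rest on GENCODE transcript lengths. Depth behind the FPKM values is unknown.

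Named were the 6 granzymes, 13 further genes of granzyme biology, the leading genes of each list and, for each granzyme, the 5 genes with the highest Pearson correlation over the 9 sorted libraries. Transcripts and positions came from GENCODE vM21 (GRCm38, the assembly also called mm10) and promoters from RefSeq (GRCm38.p6). Python 3.11.15 with Biopython 1.88 served for the sequence work.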

Additional observations from a re-analysis of the deposited data

Results flagged for a closer look

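Gzmf moved in opposite directions between sorted populations under the KO label, with a single library labelled KO in each and low values in DN. In TIM-3_SP the library labelled KO stood at 62.0 FPKM, against 1029 and 386 FPKM in wild type, and in DN it stood at 8.67 FPKM, against 4.58 and 0 FPKM in wild type. In B7S1R_SP it stood at 0 FPKM, against 2.65 and 0.06 FPKM. Gzmf was not the member that differed most in the test below, where Gzmd and Gzmg ranked ahead of it. The test of the difference, the genotype by population term of limma, gave an unadjusted p of 0.0681 and an adjusted p of 1.00 (0.999993) for Gzmf, with 0 of 10178 genes called (0.0%) and 45 at an unadjusted p under 0.05.

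Gzmb was higher with each antibody alone and lower with both than with either. Adding anti_PD1 to Control went with 1716 against 0.04 FPKM, while adding it to anti_B7S1 went with 257 against 788 FPKM, a ratio of 0.326. Adding anti_B7S1 to Control went with 788 against 0.04 FPKM, while adding it to anti_PD1 went with 257 against 1716 FPKM, a ratio of 0.150. Of all genes at 5 FPKM or more, 38.3% (anti_B7S1) and 44.2% (anti_PD1) were past the fold upward against Control. Past it downward in combo were 31.4% against anti_B7S1 and 33.6% against anti_PD1. The share of genes with both was not counted. Against Control Gzmb reached 5 FPKM only in the antibody libraries, so its upward direction was fixed in advance. Each library stands alone, so neither difference was tested.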

How the results depend on the processing

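Without a block, 0 of the 6 genes were called in any population or genotype comparison under any alternative, leave-one-out fits included. The replicate block over 6 wild-type libraries gave 2 called members of 2 genes for TIM-3_SP against DN and 4 of 7 for TIM-3_SP against B7S1R_SP, and quantile normalization with it gave 2 and 4. The set as a block over 9 libraries gave 2 of 6 and 4 of 42, and with quantile normalization 1 of 3 and 5 of 59. Leaving out 1 library from that fit gave 0 to 3 members for TIM-3_SP against DN and 1 to 4 for TIM-3_SP against B7S1R_SP. With a pseudocount of 0.1 FPKM either block gave 0. No block changed a call of B7S1R_SP against DN, and the genotype comparisons had no block.

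Leaving out single libraries moved B7S1R_SP against DN across 0: without a block Gzmc ran from -1.96 to 1.52, Gzmd from -1.12 to 0.87 and Gzmf from -1.50 to 0.98, and with the set as a block Gzmc ran from -1.66 to 0.99 (0.25 without DN_WT replicate 2), Gzmd from -0.99 to 0.64 (0.0080 and 0.0050 without B7S1R_SP_WT replicates 1 and 2) and Gzmf from -2.19 to 0.13. With wild-type libraries numbered 2 only, Gzmf in KO against wild type was 0.19, where 4 genes were called instead of 0. A 4-fold ratio left 2 members instead of 4 for combo against anti_B7S1 and 2 instead of 3 for bulk KO against wild type. Upper-quartile scaling gave 3 instead of 4 for combo against anti_B7S1 and 3 instead of 2 for combo against anti_PD1, and the other counts past the fold were the same under each alternative. Of 512 values for single genes under an alternative, 423 kept direction and side of the threshold, 52 gained a call and 13 turned sign. The other 24 are of Gzmg in B7S1R_SP against DN, which was 0 and had no direction to keep. The cause of these changes was not tested. Depth behind the FPKM values is unknown, so a granzyme listed at 0 has no stated limit.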
